A study of Mus musculus with 8 samples.

Results

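This account describes the cells of the embryonic mouse cortex that carried Fezf2 messages together with those of Bcl11b or Ldb2 and few or no Hs3st4 and Rprm messages, a group provisionally taken as layer 5 subcerebral neurons. A barcode counted as a cell from 2300 unique molecular identifiers (UMIs, each standing for 1 captured RNA molecule) and 800 detected genes upwards, if mitochondrial genes took no more than 10% of its UMIs. A member had at least 1 UMI of Fezf2, at least 2 of Bcl11b plus Ldb2, at most 1 of Hs3st4 plus Rprm, and none of Nxph4, Gad1, Gad2, Eomes, Mki67 and Top2a. Of 15547 cells, 945 met this rule. It does not ask for Bcl11b alone, which was seen in 479 of 533 members of the ShhN library and 354 of 412 members of the WT library. The members were thus chosen by the UMI counts of these 11 genes, whose values are described here and support nothing.

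The study measured single-cell RNA from the cortex of CD1 mice at embryonic day 16.5 with the 10x Genomics Chromium system. The first group was ShhN-IUE cortex, in which a ShhN plasmid had been put into the brain by in utero electroporation at E13.5. ShhN is the part of sonic hedgehog that signals. Its reference was cortex of wild type (WT) littermates. Each group had 4 samples, which were pooled in 1 matrix with no map from barcodes to samples, so each group is 1 library and no difference below has a replicate check. Electroporation reaches only some of the progenitors lining the ventricle, the labels give neither the promoter of the plasmid nor a marker of the cells it reached, and they do not say whether the WT littermates received a control plasmid. The matrices are marked only as control and experimental, taken here as WT and ShhN.

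Subcerebral neurons of layer 5 send axons out of the cortex to the midbrain, hindbrain and spinal cord. Fezf2 is a zinc finger transcription factor needed for their identity, and Bcl11b (CTIP2) acts downstream of it in the outgrowth of their axons. Hs3st4 and Rprm are markers of layer 6 corticothalamic neurons, which also express Fezf2 while young. Sonic hedgehog acts through its receptor Ptch1 and the Gli transcription factors, and Ptch1, Gli1 and Hhip are its classical targets.

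The ShhN library held 8314 cells and the WT library 7233, with a median of 6758.5 and 6385 UMIs per cell. Among the members, the median depth was 7549 UMIs in the ShhN library and 7674 in the WT library, the median number of genes was 2570 and 2688.5, and the median mitochondrial share was 3.50% and 4.11%. Ribosomal protein genes took 18.2% of ShhN members' UMIs and 16.1% of those of WT members. Scrublet called 3.002% of ShhN members and 2.43% of WT members doublets. The libraries shared 79 cell barcodes. Of these, 4 belonged to ShhN members and 6 to WT members, and leaving them out gave 29 higher and 51 lower genes in the comparison of libraries, against 29 and 50 with them. Globin messages sat in few members, since 2 ShhN members held 91.3% and 3 WT members 82.9% of the members' globin UMIs. Without those 5 cells, 28 genes were higher and 54 lower.

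The members made up a similar share of both libraries. There were 533 among 8314 ShhN cells, or 6.41% (95% Clopper-Pearson interval 5.89 to 6.96%), and 412 among 7233 WT cells, or 5.70% (5.17 to 6.26%). The ratio of ShhN to WT was 1.13 (0.988 to 1.28). Of cells with at least 2 UMIs of Neurod2 plus Neurod6 and no Gad1 or Gad2 UMI, called excitatory neurons here, members were 7.58% in the ShhN library and 6.89% in the WT library. These intervals, and all intervals below, cover counting error only and not the spread between embryos or libraries. Those of UMI ratios below also leave out the spread between cells. When every cell was first thinned to 4500 UMIs, which left out shallower cells, the shares were 6.02% of 7256 ShhN cells and 6.22% of 5548 WT cells, a ratio of 0.969 (0.839 to 1.12). The difference in share was therefore not detectable at this depth, and its direction depended on depth. The limit on layer 6 genes also moved it: with Hs3st4 and Rprm both at 0 the ratio was 1.42. Cells with at least 2 UMIs of Hs3st4 plus Rprm and the same 6 genes at 0, called Hs3st4/Rprm neurons here, were 13.4% of ShhN cells and 19.1% of WT cells, a ratio of 0.706 (0.652 to 0.764). The difference between the ratios of these 2 classes was not tested.

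**Figure D1:**
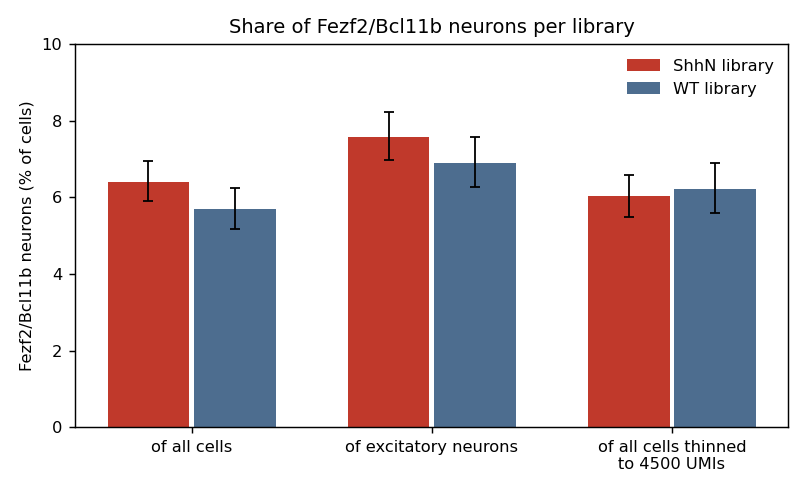
Share of cells that met the member rule (y axis, % of cells) in the ShhN library and the WT library, over all cells, over excitatory neurons and over cells thinned to 4500 UMIs; bars are shares and error bars exact Clopper-Pearson 95% intervals. The intervals of the libraries overlap in all 3 pairs, and the ShhN bar is the lower one only after thinning (6.02% against 6.22%).

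The genes of the rule are described first. Levels are counts per 1000000 UMIs (CPM), from the summed UMIs of all members of a library. Fezf2 (chromosome 14, 12342094 to 12348189, GRCm38, minus strand) stood at 382 CPM in ShhN members and 396 CPM in WT members, with a median of 2 UMIs per cell in each. Bcl11b (chromosome 12, 107910403 to 108003602, minus strand) stood at 484 CPM in ShhN and 560 CPM in WT members. Ldb2, a LIM domain cofactor, stood at 87.4 CPM in ShhN and 109 CPM in WT members, and was seen in 31.9% and 41.7% of them. Rprm, of which the rule allows 1 UMI, stood at 33.8 CPM in ShhN and 51.7 CPM in WT members (log2 ratio -0.61, -0.94 to -0.28), and was seen in 27.2% and 40.8% of them. Hs3st4 had 9 UMIs in ShhN and 12 UMIs in WT members. Neurod6 and Neurod2, transcription factors of excitatory neurons that the rule did not use, stood at 1841 and 893 CPM in ShhN members and at 1909 and 945 CPM in WT members. At least 1 Neurod6 UMI was seen in 99.4% of ShhN members and 99.5% of WT members.

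Cells just inside and just outside the thresholds are given as a description. Crym, a deep layer gene, stood at 19.8 CPM in the 185 ShhN members with 1 Fezf2 UMI and at 5.85 CPM in the 614 ShhN cells that missed the rule only by having none. In the WT library it stood at 52.97 CPM in 144 such members and 12.2 CPM in 406 such cells outside. Npy stood at 224 CPM in the 154 ShhN members with 1 UMI of Hs3st4 plus Rprm and at 242 CPM in the 121 ShhN cells with 2, against 426 CPM in 180 members and 315 CPM in 121 cells outside in the WT library.

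The label was set against its marker genes, and none of them could test it. Of the 4 marker genes named for these cells, Fezf2, Bcl11b and Ldb2 are in the rule. Only Npy, a neuropeptide (chromosome 6, 49822710 to 49829507, plus strand), is outside it. Npy was lower in members than in Hs3st4/Rprm neurons, at 156 CPM in members and 383 CPM in Hs3st4/Rprm neurons of the ShhN library, and at 264 and 350 CPM in the WT library. However, Npy varied with Hs3st4 plus Rprm among cells that otherwise met the rule. It stood at 128 CPM with 0 and 809 CPM with 3 of their UMIs in the ShhN library, and at 145 and 626 CPM in the WT library. Lower Npy in members can thus follow from how both classes were drawn, and it does not test the label. Fezf2 was itself seen in 69.9% of ShhN and 65.9% of WT Hs3st4/Rprm neurons, and Bcl11b in 77.7% and 71.5%. In vascular cells, which should lack both, Fezf2 was seen in 5.71% of ShhN and 1.96% of WT cells and Bcl11b in 2.86% and 15.7%, at median depths of 7711 and 7473 UMIs. The members are called Fezf2/Bcl11b neurons below after genes of the rule, and no layer is assigned to them.

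Against Hs3st4/Rprm neurons the Fezf2/Bcl11b neurons were set apart almost wholly by genes they had less of. The size rule called a gene that had 50 or more UMIs over both sides together, a log2 ratio of CPM of 1 or more in size, and an exact conditional binomial 95% interval whose bound nearest 0 lay 0.5 or more away on the same side. Of 9512 genes tested in both libraries, 1 was higher past the size rule in both (0.0105%) and 67 were lower in both (0.704%). The higher gene was Dact1, a scaffold of Wnt signalling. It stood at 35.9 CPM in Fezf2/Bcl11b and 14.6 CPM in Hs3st4/Rprm neurons of the ShhN library (log2 ratio 1.30, 0.95 to 1.64), and at 52.9 and 24.5 CPM in the WT library (1.11, 0.83 to 1.39).

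The 8 genes lowest by their interval bound were Tcerg1l, Ddah1, Kitl, Caln1, Fam19a2, Fam19a1, Nxph3 and Kctd12. Tcerg1l stood at 0.932 CPM in Fezf2/Bcl11b and 20.0 CPM in Hs3st4/Rprm neurons of the ShhN library (log2 ratio -4.42, -6.31 to -3.04), and at 1.23 and 13.4 CPM in the WT library (-3.44, -5.33 to -2.05). Nxph3, a neurexophilin, had log2 ratios of -3.37 in the ShhN and -2.07 in the WT library. Kitl, the ligand of the KIT receptor, had log2 ratios of -2.26 in the ShhN and -1.997 in the WT library. All 3 were thus lower in the Fezf2/Bcl11b neurons of both libraries.

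Lists of known markers were read next. Of 14 layer 6 corticothalamic markers tested, 5 were lower in Fezf2/Bcl11b neurons in both libraries and none higher, with median log2 ratios of -1.44 in the ShhN and -0.91 in the WT library, against 0.04 and 0.01 over all genes tested. These were Foxp2, Tle4, Zfpm2, Syt6 and Nxph3. Both classes were drawn by their UMIs of the layer 6 markers Hs3st4 and Rprm, few in members and more in the comparator. Lower levels of other genes found in the same cells as Hs3st4 and Rprm can thus follow from that choice. The lower layer 6 markers are therefore no separate check of the members' identity, and the same limit holds for the lower genes named above. Foxp2, a forkhead factor of layer 6, stood at 5.83 CPM in Fezf2/Bcl11b and 45.5 CPM in Hs3st4/Rprm neurons of the ShhN library, and at 13.2 and 37.2 CPM in the WT library. Of 17 subcerebral neuron genes tested, none was higher in both libraries and 3 were lower, S100a10, Ntng1 and Grb14, with medians of -0.42 in the ShhN and -0.34 in the WT library. S100a10 stood at 28.4 CPM in Fezf2/Bcl11b and 69.99 CPM in Hs3st4/Rprm neurons of the ShhN library, and at 19.1 and 42.2 CPM in the WT library.

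The choice of layer 6 cells bears on this count. Against the 604 ShhN and 790 WT cells with at least 4 UMIs of Hs3st4 plus Rprm, 14 genes were higher in both libraries. Among them were Nrp1, the semaphorin receptor (log2 ratio 1.56 in the ShhN and 1.10 in the WT library), Pou3f3, a POU factor (1.17 and 1.06), and Insm1, a zinc finger factor of newborn neurons (1.62 and 1.37). Nrp1, Pou3f3 and Insm1 were chosen after their values were seen.

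Against excitatory neurons with no Fezf2 UMI, at most 1 UMI of Hs3st4 plus Rprm and the same 6 genes at 0, a broader gene group was higher. The comparator held 2731 ShhN and 2219 WT cells, at median depths of 6499 and 6177 UMIs. Of 9879 genes tested in both libraries, 76 were higher in Fezf2/Bcl11b neurons past the size rule in both (0.769%) and 30 lower (0.304%). First was Crym, a thyroid hormone binding protein found in deep layer neurons. It stood at 41.2 CPM in Fezf2/Bcl11b and 2.66 CPM in Fezf2-free neurons of the ShhN library (log2 ratio 3.95, 3.49 to 4.44), and at 76.0 and 6.37 CPM in the WT library (3.58, 3.22 to 3.94). Also among the 15 highest were Fosl2, Zfp385b, Kif26a, Nrp2, Islr2, Igfbp3, Nr4a3, Lmo7, Tgfb2, Npy, Cnih3, Opcml and Chst8.

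Some receptors and adhesion molecules stood among these genes, but lists of such genes were not higher as a whole. Of 29 axon guidance receptors tested, 2 were higher and 4 lower in both libraries, with medians of -0.01 and -0.01. Of 15 cadherins tested, 1 was higher and 2 lower. Nrp2, a coreceptor for class 3 semaphorins, stood at 34.02 CPM in Fezf2/Bcl11b and 4.51 CPM in Fezf2-free neurons of the ShhN library, and at 105 and 18.1 CPM in the WT library. Islr2, a leucine-rich repeat membrane protein of growing axons, had log2 ratios of 2.61 in the ShhN and 2.43 in the WT library. Opcml, a cell adhesion molecule of neurons and the most abundant of the 15, stood at 410 CPM in Fezf2/Bcl11b and 104 CPM in Fezf2-free neurons of the ShhN library, and at 691 and 148 CPM in the WT library.

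Among the 8 lowest were Cux1, Unc5c, Fn1, Fam19a2, Pdzrn4 and Rbm24, with Rgs5 and Igfbp7, which mark vascular cells. Cux1, a homeobox factor of upper layers, stood at 59.2 CPM in Fezf2/Bcl11b and 226 CPM in Fezf2-free neurons of the ShhN library, and at 42.8 and 242 CPM in the WT library. Unc5c, a netrin receptor, had log2 ratios of -3.25 in the ShhN and -2.62 in the WT library. Of 18 callosal and upper layer markers tested, 6 were lower in both libraries, Cux1, Cux2, Inhba, Plxna4, Ptn and Epha3, and Lmo4 was higher. Their median log2 ratio was -0.60 in the ShhN and -0.76 in the WT library, against -0.02 and -0.02 over all genes. Of 15 subcerebral neuron genes tested, 5 were higher, Npy, Crym, S100a10, Lmo4 and Tox. That list had medians of 0.68 in the ShhN and 0.58 in the WT library. Layer 6 corticothalamic markers had medians of 0.76 and 0.79, with Crym alone higher among 11 tested. Crym is on both lists and Lmo4 is also a callosal marker, so these values do not single out subcerebral genes.

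**Figure D2:**
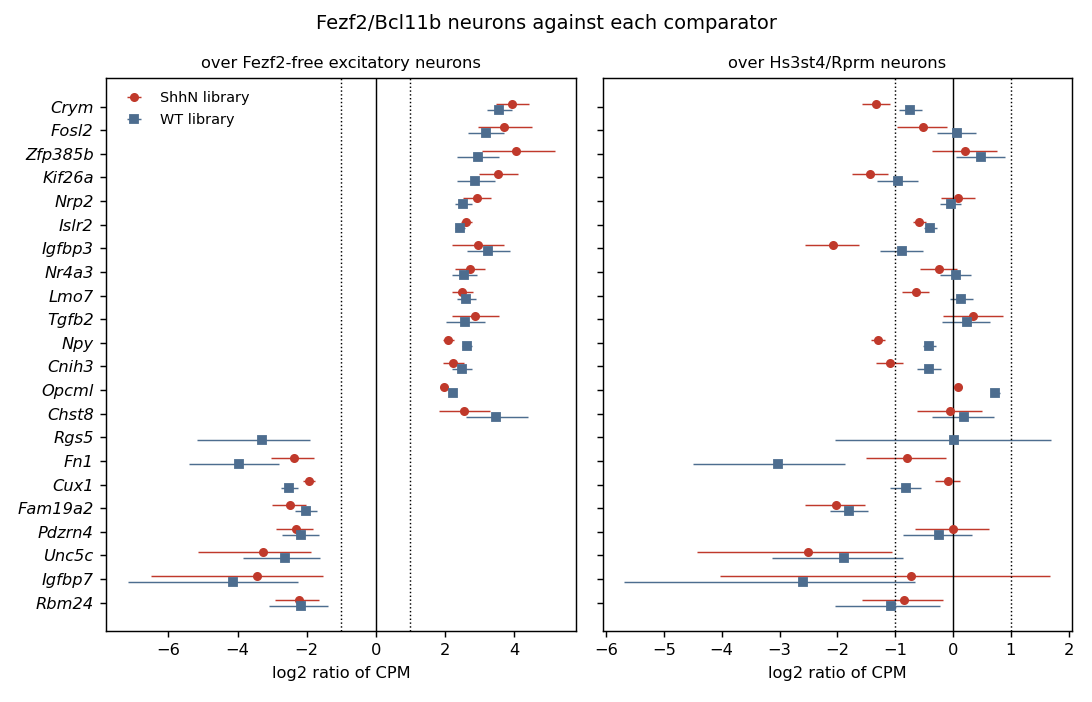
Log2 ratio of CPM of Fezf2/Bcl11b neurons over Fezf2-free excitatory neurons (left) and over Hs3st4/Rprm neurons (right) for genes among the 15 highest and 8 lowest of the left comparison; points are the ShhN and WT libraries, lines 95% counting intervals, dotted lines a log2 ratio of 1 in size, and points without a finite interval (Rgs5 in the ShhN library) are left out. Crym lies at 3.95 and 3.58 on the left panel and at -1.33 and -0.74 on the right.

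The Fezf2/Bcl11b neurons were mixed. Npy was concentrated in a few cells: the 10% of members with most Npy held 97.5% of its UMIs in the ShhN and 93.2% in the WT library, and the highest cell had 120 and 87 UMIs. By comparison, the top 10% held 30.5% and 31.0% of Fezf2 UMIs. The 3 kinds of member described next were picked after the values were seen, so none of their differences is tested. Members with at least 3 UMIs of Crym, Nrp2 and Cck numbered 70 in the ShhN library (13.1%, 10.4 to 16.3%) and 117 in the WT library (28.4%, 24.1 to 33.0%). Members with at least 2 Npy UMIs numbered 30 (5.63%) in the ShhN and 36 (8.74%) in the WT library. Members with at least 3 UMIs of Pax6, Gadd45g and Sstr2 numbered 93 (17.4%, 14.3 to 20.9%) in the ShhN and 18 (4.37%, 2.61 to 6.82%) in the WT library. These last are called the Sstr2 kind, since Sstr2, a somatostatin receptor, was the most abundant of its 3 genes: Sstr2 stood at 258 CPM and Gadd45g at 193 CPM in ShhN cells of the kind, and at 499 and 105 CPM in WT cells of the kind.

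Few members met more than 1 of these 3 rules, but each kind was small. The overlap expected by chance was not computed, so the counts do not show that the kinds are distinct. The Crym kind shared 7 ShhN and 2 WT cells with the Sstr2 kind and 0 ShhN and 1 WT cell with the Npy kind, and the Npy and Sstr2 kinds shared none. At 4500 UMIs per cell the Crym kind was 7.94% of ShhN and 18.5% of WT members, the Npy kind 4.17% and 6.61%, and the Sstr2 kind 7.94% and 1.93%. In vascular cells thinned alike, 0 of 31 ShhN and 0 of 39 WT cells met the Crym rule, and 1 ShhN and 0 WT cells the rule of the Sstr2 kind. At their own depth, 3 of 35 ShhN vascular cells (8.57%) and 2 of 51 WT vascular cells (3.92%) met the Crym rule, and 3 ShhN (8.57%) and 3 WT (5.88%) vascular cells the rule of the Sstr2 kind. The WT share of the Sstr2 kind at own depth, 4.37%, lay below the WT vascular share, whose interval was wide (1.23 to 16.2%). Whether vascular cells lack the genes of these kinds is not known here. Their shares thus cannot show how much of a kind is background. The remaining 347 ShhN and 244 WT members met none of the 3 rules.

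Genes outside the definitions differed between the kinds in both libraries. Zbtb20, a zinc finger repressor, stood at 866 CPM in Crym-kind and 250 CPM in other ShhN members, and at 1431 and 377 CPM in the WT library. Ptn, the growth factor pleiotrophin, ran the other way, at 112 CPM in Crym-kind and 368 CPM in other ShhN members, and at 106 and 467 CPM in the WT library. In the Npy kind Ptn was high, at 1038 CPM in Npy-kind and 285 CPM in other ShhN members, and at 1182 and 270 CPM in the WT library. Ldb2, a rule gene and so only described, stood at 285 CPM in Npy-kind and 74.8 CPM in other ShhN members. In the WT library it stood at 313 and 89.98 CPM. Bcl11b, which the rule counts together with Ldb2, stood at 343 and 493 CPM in the ShhN library. In the WT library Bcl11b stood at 342 and 580 CPM. How far the rule, which counts Bcl11b and Ldb2 together, adds to high Ldb2 in the Npy kind was not tested. Rnd2, a GTPase of migrating neurons, stood at 267 CPM in Sstr2-kind and 87.0 CPM in other ShhN members, and at 225 and 52.8 CPM in the WT library. Opcml was low in the Sstr2 kind, at 134 CPM there and 473 CPM in other ShhN members, and at 40.2 and 717 CPM in the WT library.

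**Figure D3:**
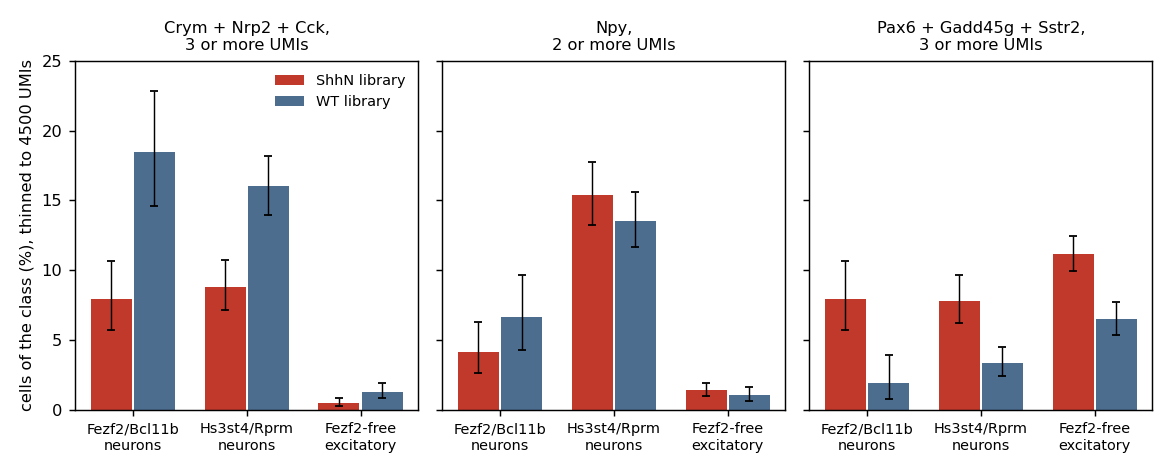
Share of cells (y axis, %) with at least 3 UMIs of Crym, Nrp2 and Cck (left), at least 2 of Npy (middle) and at least 3 of Pax6, Gadd45g and Sstr2 (right), in 3 classes of cell thinned to 4500 UMIs, in the ShhN and WT libraries; error bars are exact Clopper-Pearson 95% intervals. Among Fezf2/Bcl11b neurons the left share is 7.94% in the ShhN and 18.5% in the WT library and the right share 7.94% and 1.93%, and the Hs3st4/Rprm neurons show the same order in both panels.

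Hs3st4/Rprm neurons showed the same order of shares. At 4500 UMIs the Crym kind was 8.79% of ShhN and 16.02% of WT Hs3st4/Rprm neurons, and the Sstr2 kind 7.80% and 3.32%. Whether the difference between libraries was larger in the Fezf2/Bcl11b neurons was not tested.

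Between the libraries, few genes differed past the size rule in Fezf2/Bcl11b neurons. Shh, Cdk6, Tmem176b and Pax6 were among the higher genes in ShhN members, and Grp, Nrp2, Cck and Gabra2 among the lower ones. Of 8472 genes tested, 29 were higher in ShhN members past the size rule (0.342%) and 50 lower (0.59%). With TMM scaling, which moved all log2 ratios by 0.08, the split was 45 higher and 37 lower. All 29 higher and 37 of the 50 lower genes were called under both scalings.

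Shh itself (chromosome 5, 28456815 to 28467256, GRCm38, minus strand) had 331 UMIs in ShhN members and 0 in WT members. It was at least 83.6-fold higher in ShhN members, taking 3 UMIs as the floor for the summed WT members. The counts do not tell plasmid from endogenous Shh. Shh was seen in 28 of 533 ShhN members (5.25%, 3.52 to 7.50%) and 0 of 412 WT members, which allows a share of cells with a UMI of up to 0.728% (3 counts in 412 cells). Of 35 ShhN vascular cells, 1 (2.86%, 0.0723 to 14.9%) also had a Shh UMI, so single UMIs cannot be told from free RNA. However, 20 ShhN members had at least 2 Shh UMIs, 7 had at least 20, and the highest had 64. At 4500 UMIs per cell, 20 of 504 ShhN members had a Shh UMI.

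Several of the highest genes are known from progenitors or dividing cells. Cdk6, a kinase that partners D-type cyclins, had 135 UMIs in 84 ShhN members and 11 UMIs in 10 WT members (31.5 and 3.38 CPM, log2 ratio 3.22, 2.33 to 4.25). Pax6, a transcription factor of radial glia, stood at 21.9 CPM in ShhN and 4.31 CPM in WT members (2.35, 1.53 to 3.27). Ube2c, a ubiquitin-conjugating enzyme of mitosis, stood at 17.9 CPM in ShhN and 4.31 CPM in WT members (2.06, 1.23 to 2.995). Hmgb2, a chromatin protein abundant in dividing cells, stood at 76.0 CPM in ShhN and 27.1 CPM in WT members (1.49, 1.14 to 1.84). Sox1, a SOXB1 factor of neural progenitors, stood at 10.0 CPM in ShhN and 2.46 CPM in WT members (2.03, 0.92 to 3.33), from 43 and 8 UMIs. Of 11 progenitor markers tested among 18, 2 were higher, Pax6 and Ccnd2, and none lower, with a median log2 ratio of 0.44, against -0.06 over all genes tested. Of 8 cell cycle genes tested among 23, 2 were higher, Ube2c and Hmgb2, with a median of 0.55. Over all genes tested, 0.342% were higher.

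Free RNA moved with several of these genes. In barcodes of 1 to 50 UMIs, Hmgb2 stood at 494 CPM in the ShhN and 153 CPM in the WT library, Ube2c at 159 and 34.2 CPM, Cdk6 at 203 and 35.1 CPM, and Pax6 at 69.6 and 53.2 CPM. The 18 progenitor markers summed to 493 CPM in ShhN and 324 CPM in WT members, with Eomes, Mki67 and Top2a at 0 by the rule and Neurog1 at 0 as well. When an assumed 5% of the members' UMIs, not an estimate, was taken away in the profile of free RNA, Sox1 and Ccnd2 missed the size rule. The log2 ratio was then 3.79 for Cdk6, 3.58 for Pax6, 2.03 for Ube2c and 1.40 for Hmgb2, each still past it. Before this step Cdk6 was seen in 10 and Pax6 in 13 WT members, so their larger ratios rest on few WT UMIs.

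Other genes among the 15 highest have varied roles. Gadd45g, a growth arrest gene switched on in cells leaving the cycle, was seen in 30.2% of ShhN and 12.1% of WT members (59.9 and 18.5 CPM, log2 ratio 1.70, 1.29 to 2.13). Mfng, a glycosyltransferase that modifies Notch, stood at 24.0 CPM in ShhN and 6.77 CPM in WT members (1.83, 1.15 to 2.56). Nhlh2, a neuronal bHLH factor, stood at 24.5 CPM in ShhN and 7.69 CPM in WT members (1.67, 1.03 to 2.36). Crabp1, which binds retinoic acid in the cytoplasm, stood at 17.7 CPM in ShhN and 4.62 CPM in WT members (1.94, 1.13 to 2.85). Adgrg1 (GPR56), an adhesion receptor of the cortex, stood at 39.4 CPM in ShhN and 15.1 CPM in WT members (1.39, 0.92 to 1.87). Tmem176b, Pxylp1, Dhrs4 and Ptx3 completed the 15 highest, with log2 ratios of 2.24, 1.71, 1.49 and 1.86. Of 14 newborn and migrating neuron genes tested, Sstr2 and Rnd2 were higher (1.01 and 1.02), Pcdh19 was lower (-1.22), and the median was -0.14. The whole list of 15 summed to 2029 CPM in ShhN and 2383 CPM in WT members. Over all genes tested, 0.342% were higher and 0.59% lower.

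The count of higher genes was smaller without the Sstr2 kind of member. Without the 93 ShhN and 18 WT members of that kind, 15 genes were higher and 37 lower, and 14 of the 29 higher genes were still called. Pax6 then had a log2 ratio of 1.08, Gadd45g 0.97, Ube2c 1.46, Sox1 1.36 and Ptx3 1.36, none past the size rule. Pax6, Gadd45g and Sstr2 define that kind and are all among the 29, so any loss of them, and of genes found in the same cells, follows in part from its choice. Cdk6 (3.91), Tmem176b (1.75), Mfng (1.98), Hmgb2 (1.30), Crabp1 (2.03) and Nhlh2 (1.34) were still past it.

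**Figure D4:**
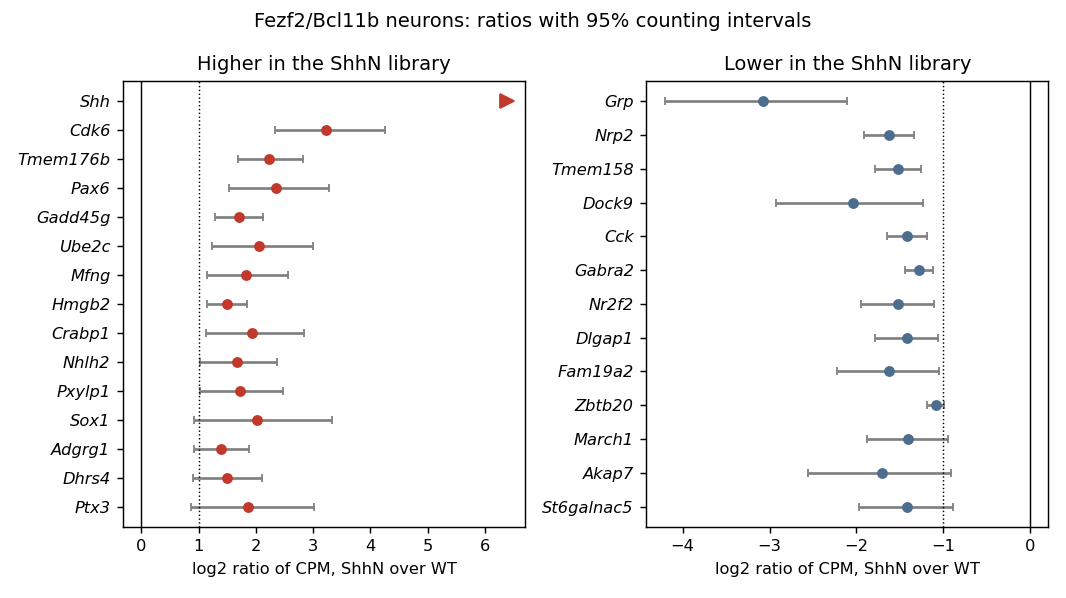
Log2 ratio of CPM (x axis), ShhN over WT, in Fezf2/Bcl11b neurons for genes among the 15 highest (left) and 15 lowest (right) past the size rule; points are ratios, bars 95% counting intervals, the dotted lines a log2 ratio of 1 in size, and the triangle for Shh a lower bound against 0 WT UMIs. After Shh, Cdk6 is farthest right (3.22), and Grp is farthest left (-3.08).

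Grp, Cck, Nrp2 and Slit3, which encode secreted or receptor proteins, were among the 50 lower genes, Slit3 outside the 15 lowest. Grp, gastrin-releasing peptide, had 10 UMIs in 9 ShhN members and 64 UMIs in 36 WT members (2.33 and 19.7 CPM, log2 ratio -3.08, -4.21 to -2.11). Cck, cholecystokinin, was seen in 20.5% of ShhN and 32.5% of WT members (55.2 and 148 CPM, log2 ratio -1.42, -1.65 to -1.19). Nrp2 was seen in 11.8% of ShhN and 29.6% of WT members (34.02 and 105 CPM, log2 ratio -1.62, -1.91 to -1.34). Slit3, a ligand of Robo receptors, stood at 7.46 CPM in ShhN and 17.8 CPM in WT members (-1.26, -1.93 to -0.61). Of 27 guidance receptors tested among 35, Nrp2 alone passed (median log2 ratio -0.27), of 15 guidance ligands among 28 Slit3 alone (-0.49), and of 7 neuropeptides and granins among 25 Cck alone (-0.30), while Grp was outside these lists. Over all genes tested, 0.59% were lower.

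Gabra2, Grm5 and Dlgap1, which act at synapses, were lower too. Gabra2, a GABA-A receptor subunit, stood at 112 CPM in ShhN and 271 CPM in WT members (log2 ratio -1.28, -1.45 to -1.12), and was seen in 41.5% and 65.8% of cells. Grm5, a metabotropic glutamate receptor, stood at 10.0 CPM in ShhN and 23.4 CPM in WT members (-1.22, -1.80 to -0.66). Dlgap1, a scaffold of the postsynaptic density, stood at 22.4 CPM in ShhN and 60.0 CPM in WT members (-1.42, -1.79 to -1.06). Of 12 glutamate and GABA receptors tested among 33, Grm5 and Gabra2 were lower, and the median of all 12 was -0.61. Over all genes tested, 0.59% were lower and the median was -0.06. Gabra2 and Dlgap1 were still called in all 20 alternative settings, Grm5 in 13 of 20. The 25 voltage-gated channels tested among 36 had a median of -0.40. None of 25 synaptic vesicle genes tested passed (median -0.26).

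The transcription factors Zbtb20 and Nr2f2 were lower as well. Zbtb20, the most abundant, stood at 343 CPM in ShhN and 729 CPM in WT members (log2 ratio -1.09, -1.18 to -0.99). It was seen in 58.3% of ShhN and 60.7% of WT members. Nr2f2 (COUP-TFII), a nuclear receptor graded across cortical areas, stood at 16.6 CPM in ShhN and 47.4 CPM in WT members (-1.52, -1.94 to -1.10). Tmem158, Dock9, Fam19a2, March1, Akap7 and St6galnac5 were also among the 15 lowest, with log2 ratios of -1.52, -2.04, -1.62, -1.40, -1.71 and -1.42. Of 17 areal and medial cortex genes tested, Nr2f2, Nrp2 and Zbtb20 were lower and Pax6 higher, with a median of -0.31. Over all genes tested, 0.59% were lower and 0.342% higher, with a median of -0.06.

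The count of lower genes was smaller without the Crym kind of member. Without the 70 ShhN and 117 WT members of that kind, 22 genes were higher and 42 lower, and 22 of the 50 lower genes were still called. Nrp2 and Cck help define that kind and are among the 50, so the loss of Cck, and of genes found in the same cells, follows in part from its choice. Cck (-0.55) and Zbtb20 (-0.59) then missed the size rule, and Slit3 stood at 0.25. Nrp2 (-1.29), Gabra2 (-1.17), Nr2f2 (-1.30), Tmem158 (-1.46) and Dlgap1 (-1.54) were still past it. Without either the Crym or the Sstr2 kind, 9 genes were higher and 25 lower, and 8 of the 29 and 16 of the 50 were still called.

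Genes tied to the subcerebral identity were not past the size rule between the libraries. None of 13 subcerebral neuron genes tested among 24 was past it, with a median log2 ratio of -0.06 against -0.06 over all genes. None of 21 corticofugal transcription factors tested among 25 was past it (median -0.08), nor of 12 layer 6 markers among 15 (-0.21) or 17 callosal and upper layer markers among 20 (-0.12). Most Npy UMIs sat in few cells, a spread that its interval leaves out. Npy stood at 156 CPM in ShhN and 264 CPM in WT members (log2 ratio -0.76, -0.90 to -0.61). It was seen in 13.1% of ShhN and 24.0% of WT members, against 2.86% of ShhN and 17.6% of WT vascular cells, and at 4500 UMIs in 9.33% and 14.3% of members against 3.23% and 12.8% of vascular cells. Without the 28 members that carried a Shh UMI, the log2 ratio of Npy was -1.14 and past the size rule. Crym stood at 41.2 CPM in ShhN and 76.0 CPM in WT members (-0.88, -1.17 to -0.60). Pcp4, a calmodulin-binding protein of deep layers, stood at 114 CPM in ShhN and 76.0 CPM in WT members (0.58, 0.36 to 0.81). Foxp2 stood at 5.83 CPM in ShhN and 13.2 CPM in WT members (-1.18), with an interval of -1.96 to -0.44 that missed the bound.

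Sonic hedgehog targets gave few UMIs in the Fezf2/Bcl11b neurons. Ptch1 had 64 UMIs in 54 ShhN members and 21 UMIs in 21 WT members (14.9 and 6.46 CPM, log2 ratio 1.21, 0.48 to 1.99), just short of the bound of 0.5. Its share of cells was 10.1% in ShhN and 5.10% in WT members, against 11.4% of 35 ShhN and 9.80% of 51 WT vascular cells. Vascular cells were chosen for lacking neuronal genes, and whether they lack Ptch1 is not known here. These shares thus cannot show whether Ptch1 in members is background. Hhip was seen in 4 ShhN members and 0 WT members, and Gli1 in 2 and 0. Boc, a coreceptor of sonic hedgehog, had 26 UMIs in ShhN and 2 UMIs in WT members (log2 ratio 3.30, 1.30 to 6.42), under the minimum of 50 UMIs. Of 5 SHH targets tested among 11, Ccnd2, a D-type cyclin, was higher, at 124 CPM in ShhN and 60.9 CPM in WT members (1.02, 0.79 to 1.27), with free RNA at 405 and 97.8 CPM. Of 5 SHH receptors and mediators tested among 15, Shh alone passed. Smo, the signal transducer that Ptch1 restrains, stood at 22.4 CPM in ShhN and 23.7 CPM in WT members.

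ShhN members with a Shh UMI were set against ShhN members without one. At 4500 UMIs per cell there were 20 with and 484 without, all within 1 library. Of 5259 genes tested, 39 were higher in the Shh-carrying members past the size rule (0.742%), Shh included, and 15 lower (0.285%). Npy had 75 UMIs in the Shh-carrying and 293 UMIs in the Shh-free members, a log2 ratio of 2.63 (2.245 to 3.001) of CPM. It was seen in 9 of the 20 and in 38 of the 484, the highest of the 20 had 17 UMIs, and without that cell the log2 ratio was 2.33 (1.90 to 2.74). Ptn had 94 UMIs in the Shh-carrying and 584 in the Shh-free members (1.96, 1.63 to 2.28), and Tbr1, a deep layer factor, 17 and 123 (1.74, 0.92 to 2.48). Lmo4, a LIM-only factor, had 8 UMIs in the Shh-carrying and 851 in the Shh-free members (-2.14, -3.35 to -1.15). Ptch1 had 1 UMI in the Shh-carrying and 39 in the Shh-free members (log2 ratio -0.69, -6.03 to 1.87). Ptn, Tbr1 and Lmo4 were taken from the lists of markers after their values were seen, and leaving out all Shh-carrying members gave 29 higher and 55 lower genes between the libraries.

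Each of the remaining lists had at most 1 gene past the size rule between the libraries. Dpysl4 was the only one of 29 axon growth and cytoskeleton genes past the size rule (lower, median -0.19), Pcdh19 of 14 cadherins (-0.17), Igfbp3 of 9 insulin-like growth factor genes (-0.05) and none of 11 immediate early and stress genes (-0.13). Nhlh2 was the only one of 2 Cajal-Retzius markers past it, and the 7 erythroid markers tested had a median of -0.27. The 2 subplate markers tested had a median of -0.06. No interneuron, vascular or microglia marker reached 50 UMIs: the 17 interneuron markers summed to 17.5 CPM in ShhN and 64.3 CPM in WT members, the 10 vascular markers to 3.50 and 6.77 CPM, and the 10 microglia markers to 4.66 and 6.46 CPM. Gad1 and Gad2 were at 0 by the rule, and the vascular genes Flt1, Cdh5, Pdgfrb and Kcnj8 and the microglia genes C1qa, C1qb and P2ry12 were at 0 in both libraries.

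Several of the ratios were close to those in neighbouring classes, which come from the same libraries. Log2 ratios of ShhN over WT in Fezf2/Bcl11b, Hs3st4/Rprm and Fezf2-free excitatory neurons were 3.22, 3.63 and 2.30 for Cdk6, 2.24, 1.63 and 1.55 for Tmem176b, -1.28, -1.37 and -1.08 for Gabra2, and -3.08, -2.86 and -2.28 for Grp. They were farther apart for Adgrg1 (1.39, -0.02 and 0.28) and Dlgap1 (-1.42, -0.59 and -0.40). Genes past the size rule in Hs3st4/Rprm neurons were 29 higher (0.278%) and 67 lower (0.643%) of 10421, and in Fezf2-free excitatory neurons 59 higher (0.546%) and 112 lower (1.04%) of 10805. None of these differences between classes was tested.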

How the data were processed

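The tools named in the submitters' processing notes are Cell Ranger, Seurat 3 and StringTie, with genome mm10. What each tool did is not given in the sources used here. The deposited values are raw UMI counts per gene and barcode, with no normalization, empty droplets included, 1 matrix per group. Counts of members were summed per library and scaled to CPM. CPM carry exact Poisson, ratios exact conditional binomial and shares exact Clopper-Pearson intervals at 95%, for counting error only. With 1 library per group no test between groups was made, and no p-value is given. A library with 0 UMIs of a gene was set to a floor of 3. Thinning to 4500 UMIs used seed 1, doublets were called by scrublet (scanpy 1.11.5, 6% expected) and left in, and TMM factors came from edgeR 4.0.16.

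The members and the 26 gene lists were chosen with earlier results of these data known. Named were the 15 highest and 15 lowest genes between libraries, and the 15 highest and 8 lowest against each comparator in both libraries, by the interval bound nearest 0, leaving out rule genes, globins, mitochondrial, Xist, Y-linked and unnamed genes, plus rule genes, Neurod2, Neurod6, Shh and list members. Free RNA came from barcodes of 1 to 50 UMIs, and background shares from vascular cells (at least 8 UMIs over 8 genes: Cldn5, Flt1, Pecam1, Cdh5, Rgs5, Pdgfrb, Kcnj8 and Col4a1). Gene positions are from GENCODE on GRCm38. Alternatives covered cell filters, the member rule, thinning, count minimum, scaling, free RNA and subsets of members. A few genes, and the cell class and subsets defined by one of them, are not reported here.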

Additional observations from a re-analysis of the deposited data

Results flagged for a closer look

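The genes Nhlh2, Akap7, Glra2 and Adcy1 were past the size rule between the libraries in Fezf2/Bcl11b neurons and had the opposite sign, with an interval that left out 0, in Hs3st4/Rprm neurons. The difference between the classes was not tested. Nhlh2, a neuronal bHLH factor, was higher in ShhN members by a log2 ratio of 1.67 (105 UMIs in ShhN and 25 in WT members) and stood at -0.33 (-0.62 to -0.06) in Hs3st4/Rprm neurons (174 and 278 UMIs). Akap7, an anchor of protein kinase A, had a log2 ratio of -1.71 (19 and 47 UMIs) in Fezf2/Bcl11b neurons and 0.33 (0.09 to 0.56) in Hs3st4/Rprm neurons. Glra2, a glycine receptor subunit, had -1.20 (47 and 82 UMIs) and 0.32 (0.13 to 0.52). Adcy1, an adenylyl cyclase, had -1.18 (35 and 60 UMIs) and 0.47 (0.27 to 0.67). Glra2 and Adcy1 were named after their values were seen. Nhlh2 was still called between the libraries in 19 and Akap7 in 12 of 20 alternative settings. The calls of Glra2 and Adcy1 were lost with Bcl11b plus Ldb2 of at least 4 UMIs and with Hs3st4 plus Rprm at 0. They were also lost with thinning before or after the rule, and that of Adcy1 with TMM scaling.

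A signal outside the cells was Shh in near-empty barcodes. In ShhN barcodes of 1 to 50 UMIs it stood at 116 CPM, from 138 of 1192277 UMIs, and in WT barcodes no Shh UMI was found among 1053079.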

How the results depend on the processing

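The ratio of shares, 1.13 with the rule as given, was 0.968 with Bcl11b plus Ldb2 of at least 4 UMIs, 1.42 with Hs3st4 plus Rprm at 0 and 0.969 with cells thinned before the rule. The counts of genes higher and lower in ShhN members, 29 and 50, were 17 and 33 with Bcl11b plus Ldb2 of at least 4, 14 and 24 with cells thinned before the rule, 44 and 86 at a minimum of 20 UMIs, 12 and 14 at 200, and 55 and 116 with no minimum. Lower genes were 29 with Hs3st4 plus Rprm at 0, 32 with members thinned after the rule and 78 with equal weight per cell, and higher genes were 45 with TMM. Fewer UMIs enter under thinning, and fewer genes are tested at the minimum of 200 UMIs; otherwise the cause was not tested. Of the 29 higher and 50 lower genes, 11 and 19 were still called with Bcl11b plus Ldb2 of at least 4. Among those lost there were Cdk6, Pax6, Mfng, Ube2c, Sox1, Pxylp1 and Grp. With cells thinned before the rule, 11 and 12 were still called, and Pax6, Mfng, Ube2c, Crabp1, Adgrg1 and Grp were among those lost. Genes higher than in Fezf2-free excitatory neurons, 76, were 48 with Hs3st4 plus Rprm at 0 and 40 at the minimum of 200. Genes higher than in Hs3st4/Rprm neurons, 1, were 2 without doublets, 4 with Bcl11b plus Ldb2 of at least 4, with cells thinned before and with members thinned after the rule, 5 with Hs3st4 plus Rprm at 0, 3 with equal weight and 3 with free RNA subtracted.

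The following were chosen after seeing the data. Higher genes were 15 without Sstr2-kind members, and higher and lower genes 9 and 25 without either kind. Slit3 changed sign, to 0.25 without Crym-kind members and 0.23 without either kind. Genes higher than in Hs3st4/Rprm neurons were 5 against those with no Fezf2 UMI and 14 against those with at least 4 UMIs of Hs3st4 plus Rprm. Of 6021 recomputed single-gene ratios, 5589 lay within the counting interval of the value reported, 430 lay outside it, and 2 of genes past the size rule changed sign, both Slit3.

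No paired analysis was possible because the replicate numbers of the labels are not carried by the pooled matrices. Leaving out single replicates was not possible for the same reason. Genes under 50 UMIs, among them Gli1, Hhip and Boc, are limited by depth.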
